A study of Ovis aries with 15 samples.

Results

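A set of 31 genes for the synthesis and handling of cholesterol was followed through late gestation in the liver of fetal sheep (Ovis aries). The genes were chosen by name and function, with earlier results of these data known. All 31 were found in the deposited table of 31411 genes. All 31 also passed the filter on low counts, which left 16977 genes for testing. By role, 18 of them encode enzymes of synthesis, 4 regulate synthesis, 3 carry sterol within the cell, 3 esterify it and 3 export it. The enzymes of synthesis fall into 7 of the mevalonate pathway and 11 of the steps from squalene to cholesterol.

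Poly(A) RNA of whole liver tissue was sequenced in 15 libraries. There were 4 libraries from gestational day 100 (GD100), 5 from GD124 and 6 from GD144, so that the stages lay 24 and 20 days apart. No treatment, genotype, breed, sex or maternal condition is given for any library, and the labels do not state whether each library came from a different fetus, so the p-values speak only to the spread among these libraries. The letters in the sample codes differ from stage to stage, and a cohort or processing batch that follows them cannot be told apart from gestational age.

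Mammalian cells build cholesterol from acetyl-CoA by way of mevalonate and farnesyl diphosphate to squalene, which is oxidised, closed into rings and trimmed to cholesterol on the endoplasmic reticulum. When membranes are short of sterol, the escort protein SCAP carries the transcription factor precursor encoded by SREBF2 to the Golgi, where it is cut to a form that switches on the genes of synthesis, while the INSIG proteins hold SCAP back when sterol is plentiful. The liver also esterifies cholesterol, loads it onto high density lipoprotein through ABCA1, and secretes it into bile through the paired half-transporters ABCG5 and ABCG8.

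Library totals ran from 24215612 to 38247295 counts. The smallest count of any of the 31 genes was 57, for SOAT1 in GD100 replicate 2 (95% exact Poisson interval 43.2 to 73.9, counting error only). The markers of hepatocytes, 8 plasma protein genes, were present in every library, with summed levels, in counts-per-million (CPM), from 49139 to 138567 in GD100 libraries, from 187087 to 219815 in GD124 libraries and from 148345 to 187124 in GD144 libraries. The 11 erythroid markers measured, which are not liver parenchyma but belong to the blood-forming cells that the fetal liver houses, had sums between 3355 and 9507 CPM in GD100 libraries, between 1303 and 2888 CPM in GD124 libraries and between 36.9 and 719 CPM in GD144 libraries. In edgeR, 8 of 8 hepatocyte markers were higher at GD124 than at GD100, where 16.6% of all genes were higher. None of them was called between GD144 and GD124, where 27.5% of all genes were. Of the 11 erythroid markers, 2 were called lower at GD124 than at GD100, where 17.4% of all genes were. All 11 had log2 changes between -2.25 and -1.50 there, and 9 were lower with no overlap between libraries (12.6% of all genes). At GD144 against GD124, 11 of 11 were called lower, where 15.4% of all genes were. The part of either cell type in the results on the 31 genes was not tested, and in whole tissue fewer cells of a type and less RNA per cell cannot be told apart. GD100 replicates 2 to 4 stood apart in the table, with fractional estimated counts for 10.6% to 10.8% of genes against 5.09% to 6.20% in the other 12 libraries. Whether these 3 libraries were counted in the same way as the rest is not given, so a change from GD100 may hold a difference in counting, and comparisons with GD100 were also made with replicate 1 as its lone library.

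All 3 export genes rose in the later interval, in which 7 of the 18 synthesis genes fell, where 12.1% of all genes tested rose and 15.4% fell. At GD144 against GD124, ABCA1 rose 2.46-fold, ABCG5 3.70-fold and ABCG8 4.37-fold, whereas no synthesis gene rose. The largest falls among the 31 genes in that comparison were in LBR and SQLE, to 0.219 and 0.335 of their GD124 levels. Fold changes are from the edgeR fit of all 15 libraries, a gene was counted as changed at a Benjamini-Hochberg adjusted p below 0.05 over all 16977 genes, and each error given with a log2 change is its standard error.

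**Figure D1:**
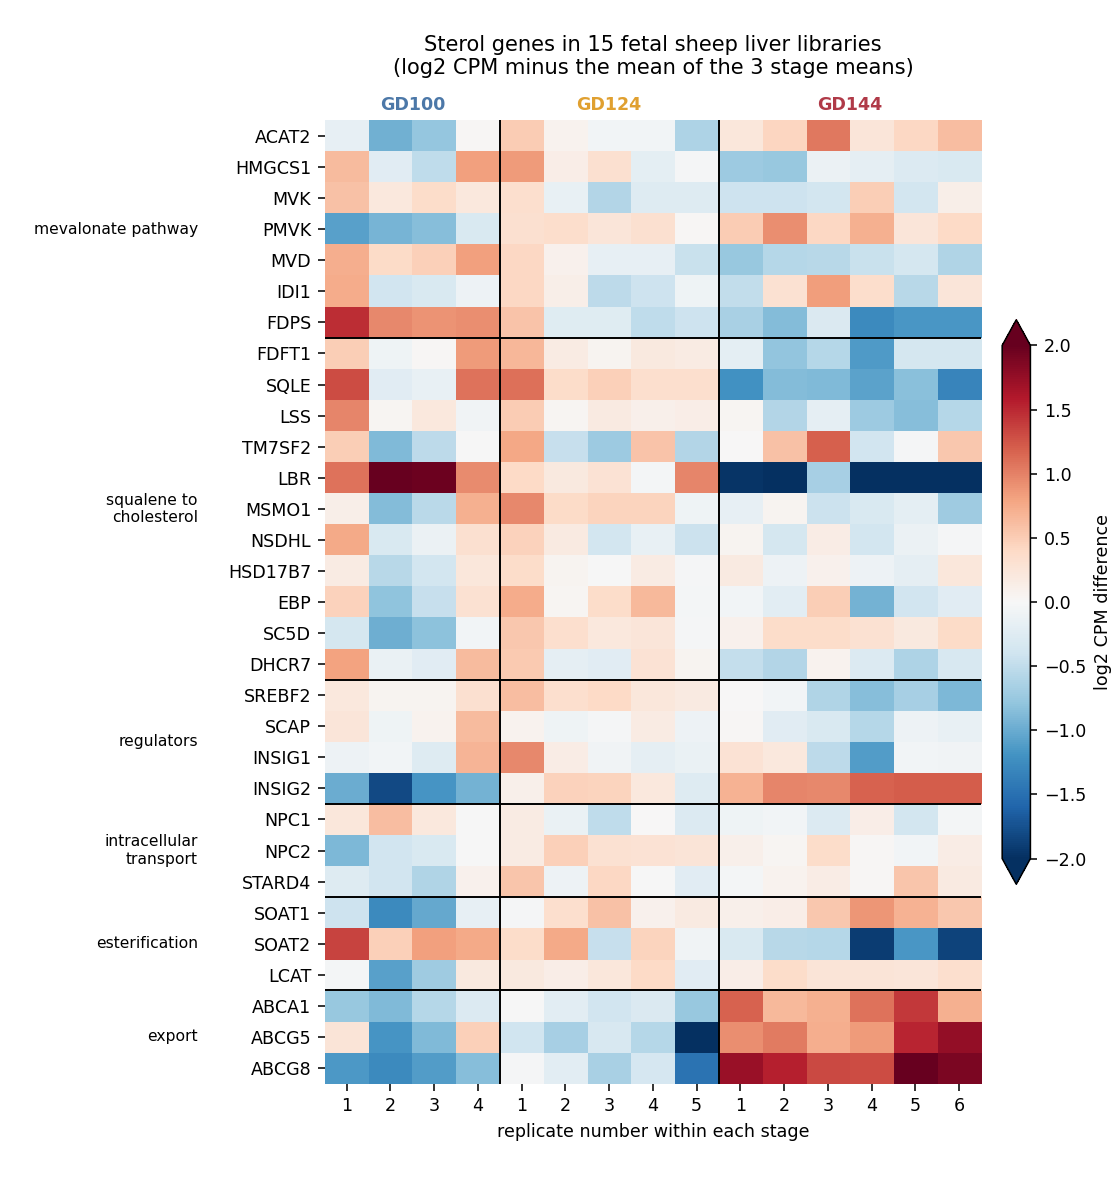
Heat map of the 31 sterol genes (rows, ordered by role) in the 15 libraries (columns, by stage and replicate number), coloured by log2 CPM minus the mean of the 3 stage means, with the colour scale ending at 2 in either direction. ABCA1, ABCG5 and ABCG8 are red in all 6 GD144 libraries, LBR is dark red in GD100 replicates 2 and 3 and blue at GD144, and 13 of the 18 synthesis genes were not called between GD124 and GD100.

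In the earlier interval, GD124 against GD100, 9 of the 31 genes changed, in both directions. There were 6 higher and 3 lower at GD124, where 16.6% of all genes tested were higher and 17.4% lower, 34.0% in all, so the genes called were no larger a share of the 31 than of all genes. Libraries of both stages did not overlap for 5 genes higher and 1 lower at GD124, which was so for 11.6% and 12.6% of all genes. Of the 18 synthesis genes 2 rose, PMVK and SC5D, and 3 fell, MVD, FDPS and LBR, and their median log2 change was -0.11, beside 0.02 over all genes. The sign of that median turned on single GD100 libraries: it was 0.16 without GD100 replicate 1 and 0.06 without GD100 replicate 4, against -0.26 without GD100 replicate 2, -0.22 without GD100 replicate 3 and -0.57 with replicate 1 alone. Without GD124 replicate 1 it was -0.23. Outside synthesis, INSIG2, NPC2, SOAT1 and ABCG8 rose and none fell. When GD100 replicate 1 stood alone for its stage, 3 of the 31 genes were higher and the calls for LBR, SC5D, SOAT1 and ABCG8 were lost. Without GD124 replicate 1, 5 genes were lower, the additional ones being MVK and NPC1.

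In the later interval, GD144 against GD124, 4 of the 31 genes were higher and 9 were lower, where 12.1% of all genes were higher and 15.4% lower, 27.5% in all. Libraries did not overlap for 4 genes higher and 4 lower at GD144, against 7.81% and 11.0% of all genes. The synthesis genes had 7 falls and no rise, with a median log2 change of -0.49, beside -0.01 over all genes. Those 7 were MVD, FDPS, FDFT1, SQLE, LSS, LBR and MSMO1. All 3 export genes rose, with a median log2 change of 1.89. Without GD124 replicate 1, 4 synthesis genes were lower and 1, ACAT2, was higher.

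Over the whole span, GD144 against GD100, 11 genes were higher and 11 lower, where 27.1% of all genes were higher and 27.9% lower, 55.0% in all. Libraries did not overlap for 8 genes higher and 7 lower at GD144, against 19.2% and 20.8% of all genes. The synthesis genes had 3 rises and 8 falls. With GD100 replicate 1 alone, 7 of the 31 genes were higher, and the calls for ACAT2, STARD4, LCAT, ABCG5, SREBF2 and SCAP were lost. The genes called in no pairwise comparison were MVK, IDI1, TM7SF2, NSDHL, HSD17B7, EBP, INSIG1 and NPC1, 6 of them synthesis genes.

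**Figure D2:**
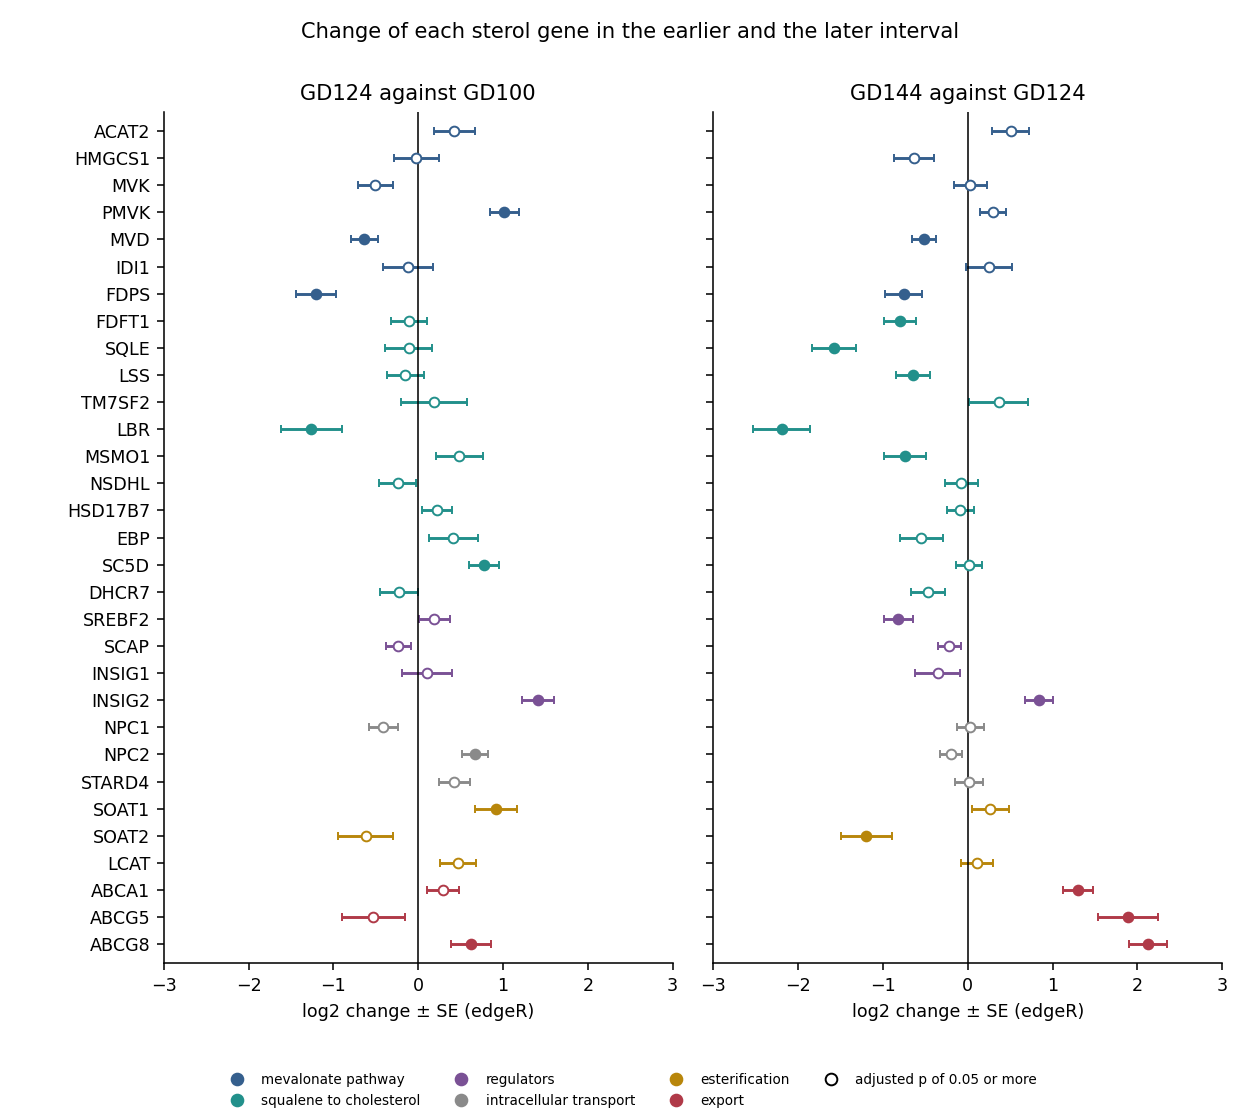
Log2 change (horizontal axis) of each of the 31 sterol genes with its standard error in GD124 against GD100 (left) and GD144 against GD124 (right), coloured by role and filled where the edgeR adjusted p was below 0.05. In the right panel ABCA1, ABCG5 and ABCG8 lie at 1.30, 1.89 and 2.13, and the 7 synthesis genes that were called all lie below 0.

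The early steps of synthesis did not move together. PMVK, phosphomevalonate kinase, had 15.8, 17.6, 18.6 and 27.2 CPM in GD100 replicates 1 to 4 and 42.0, 42.6, 39.8, 42.0 and 33.9 CPM in GD124 replicates 1 to 5, with a lowest value of 39.4, a median of 46.1 and a highest of 64.2 CPM at GD144. Every GD124 and GD144 library lay above every GD100 library, and GD124 and GD144 overlapped. PMVK rose by 1.02 ± 0.17 on the log2 scale at GD124 against GD100 (adjusted p = 0.000524), and its change at GD144 against GD124 was 0.30 ± 0.15 (adjusted p = 0.158).

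FDPS, farnesyl diphosphate synthase, went the other way. It had 52.2, 36.4, 34.8 and 35.6 CPM at GD100 and 27.8, 15.8, 15.7, 13.05 and 13.999 CPM at GD124, and a lowest value of 7.64, a median of 9.25 and a highest of 15.2 CPM at GD144. Replicate 1 was the highest library at both GD100 and GD124, and the GD100 libraries lay above all others. FDPS fell by 1.20 on the log2 scale at GD124 against GD100 (SE 0.24, adjusted p = 0.00148) and by 0.76 at GD144 against GD124 (SE 0.22, adjusted p = 0.0154). Without GD124 replicate 1 the later fall was 0.52 and was not called (adjusted p = 0.0569).

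MVD, which decarboxylates mevalonate diphosphate, had 62.5, 48.9, 52.2 and 66.3 CPM at GD100 and 50.4, 39.8, 33.5, 33.6 and 27.6 CPM at GD124, and a lowest value of 22.3, a median of 25.5 and a highest of 29.5 CPM at GD144. Neighbouring stages overlapped at their edges, while GD144 lay wholly below GD100. MVD fell by 0.64 at GD124 against GD100 (SE 0.16, adjusted p = 0.00573), by 0.52 at GD144 against GD124 (SE 0.14, adjusted p = 0.0124) and by 1.15 over the whole span (SE 0.15, adjusted p = 7.91e-06) on the log2 scale.

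The thiolase encoded by ACAT2 joins acetyl units at the head of the pathway; it is not the esterifying enzyme of a similar older name, which is SOAT2. ACAT2 averaged 94.0 ± 29.9 CPM at GD100, 126 ± 34.4 CPM at GD124 and 179.8 ± 42.3 CPM at GD144 (SD, n = 4, 5 and 6). It rose by 0.94 ± 0.24 on the log2 scale at GD144 against GD100 (adjusted p = 0.00314), with no overlap between those libraries, and neither interval alone passed the threshold. HMGCS1, the cytosolic synthase of the following step, averaged 108 ± 46.1, 107 ± 32.3 and 68.7 ± 12.6 CPM at GD100, GD124 and GD144. Its fall of 0.66 at GD144 against GD100 (SE 0.25, adjusted p = 0.0365) came with overlapping libraries. It was lost without any 1 of GD100 replicates 1 and 4 or of GD144 replicates 1 and 2, with the highest adjusted p, 0.183, without GD100 replicate 4. MVK, mevalonate kinase, averaged 25.4 ± 3.27, 17.9 ± 4.36 and 18.3 ± 5.33 CPM at the 3 stages, and IDI1, the isomerase that makes the reactive isoprene unit, 180.2 ± 73.0, 166 ± 44.4 and 197 ± 71.3 CPM. Neither was called in any comparison; for IDI1 the spread within each stage was wider than the differences between the means.

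The steps from squalene to the sterol rings were lower at GD144. SQLE, squalene epoxidase, which controls flux into the sterol branch, had 70.1, 24.2, 25.6 and 60.2 CPM at GD100, 60.8, 36.4, 39.3, 35.8 and 35.6 CPM at GD124, and a lowest value of 11.3, a median of 14.3 and a highest of 15.9 CPM at GD144. All 6 GD144 libraries lay below every earlier library, and the GD100 libraries fell into a higher and a lower pair around the GD124 values. The log2 change of SQLE was -1.58 ± 0.26 at GD144 against GD124 (adjusted p = 0.000328) and -0.11 ± 0.28 at GD124 against GD100 (adjusted p = 0.784).

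FDFT1, squalene synthase, had 95.4, 64.1, 68.8 and 122 CPM at GD100, 107, 75.7, 70.4, 77.9 and 76.1 CPM at GD124, and 30.9 to 59.1 CPM with a median of 49.4 at GD144. No GD144 library reached the lowest library of either earlier stage. FDFT1 fell by 0.80 at GD144 against GD124 (SE 0.19, adjusted p = 0.0055). LSS, which closes the ring system to lanosterol, had 70.9, 37.0, 41.6 and 34.1 CPM at GD100 and 51.0, 37.0, 40.6, 38.4 and 39.2 CPM at GD124. At GD144 its median was 23.97 CPM, with a range of 19.9 to 37.1. Its fall at GD144 against GD124 was 0.64 (SE 0.20, adjusted p = 0.0217), and the GD144 and GD124 libraries overlapped in 1 value of each stage. GD144 also overlapped GD100, with GD144 replicate 1 above GD100 replicates 2 and 4. The LSS call was lost without GD124 replicate 1 (adjusted p = 0.0619) and without GD144 replicate 4 (adjusted p = 0.0616).

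Of the genes that trim lanosterol, MSMO1, NSDHL, HSD17B7 and EBP differed in sign in the earlier interval, with log2 changes of 0.48, -0.24, 0.22 and 0.41. In the later interval their log2 changes were -0.74, -0.07, -0.09 and -0.55, and only that of MSMO1 was called. MSMO1, which oxidises the methyl groups that are removed, averaged 151 ± 74.5, 211 ± 54.5 and 126 ± 22.3 CPM at GD100, GD124 and GD144. Its fall of 0.74 at GD144 against GD124 (SE 0.25, adjusted p = 0.0333) was lost in 9 of the 15 fits that left out a library, those without any 1 of GD124 replicates 1 to 4 or of GD144 replicates 1 and 3 to 6. The highest of these adjusted p values, 0.102, came without GD124 replicate 1. NSDHL, which acts after MSMO1, averaged 40.8 ± 13.8, 34.5 ± 9.38 and 32.7 ± 4.82 CPM, and HSD17B7, which acts after NSDHL, 8.29 ± 2.19, 9.64 ± 1.11 and 9.07 ± 1.08 CPM. EBP, the isomerase that shifts a ring double bond, averaged 89.8 ± 35.8, 119.6 ± 28.6 and 81.9 ± 26.7 CPM. None of NSDHL, HSD17B7 and EBP was called between any stages.

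SC5D, which puts a double bond into the sterol ring, was the synthesis gene beside PMVK that rose early. It averaged 116 ± 34.6 CPM at GD100, 199 ± 28.3 CPM at GD124 and 201 ± 15.9 CPM at GD144. Every GD124 library lay above every GD100 library, the nearest being 162 CPM at GD124 and 159 CPM at GD100. SC5D rose by 0.78 ± 0.18 on the log2 scale at GD124 against GD100 (adjusted p = 0.00359), and the later change was 0.01 ± 0.16. DHCR7, which reduces a ring double bond at the end of the pathway, averaged 46.0 ± 16.3, 39.4 ± 8.81 and 28.5 ± 5.38 CPM at the 3 stages. It fell by 0.69 at GD144 against GD100 (SE 0.21, adjusted p = 0.0109), a call lost without GD100 replicate 1 (adjusted p = 0.0629).

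LBR and TM7SF2 encode enzymes for the same reduction of a sterol ring, and LBR is in addition a protein of the inner nuclear membrane that tethers chromatin. LBR had 167, 372, 306 and 151 CPM at GD100, 104, 89.9, 95.6, 76.0 and 154 CPM at GD124, and 20.01, 17.6, 49.4, 17.4, 15.02 and 16.6 CPM in GD144 replicates 1 to 6. GD144 lay below both other stages, and only GD124 replicate 5 reached the lowest GD100 library. LBR fell by 1.26 at GD124 against GD100 (SE 0.36, adjusted p = 0.0143), by 2.19 at GD144 against GD124 (SE 0.33, adjusted p = 0.000235) and by 3.46 over the whole span (SE 0.36, adjusted p = 1.29e-06) on the log2 scale. The earlier call was lost without GD100 replicate 2 (adjusted p = 0.0557).

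Within each stage the libraries high in LBR were those high in the erythroid markers. The summed erythroid markers were 3867, 9507, 7012 and 3355 CPM in GD100 replicates 1 to 4, the 2 highest being the 2 highest in LBR. At GD124 the highest was replicate 5 with 2888 CPM, and at GD144 it was replicate 3 with 719 CPM, against 36.9 to 105 CPM in the other 5, and both were the highest LBR libraries of their stages. Markers of other blood lineages were also called lower at GD144 than at GD124, in 5 of 5 measured for megakaryocytes and 3 of 6 for granulocytes. The share over all genes was 15.4%. The part of RNA from these cells in the fall of LBR was not tested. With LBR left out, 6 of 17 synthesis genes were lower at GD144 than at GD124, where 15.4% of all genes were lower.

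TM7SF2 had 34.0, 13.1, 16.8 and 23.9 CPM at GD100, 41.0, 17.5, 14.5, 36.0 and 16.0 CPM at GD124, and a lowest value of 18.4, a median of 29.5 and a highest of 55.3 CPM at GD144. The stages overlapped throughout, and its log2 changes of 0.19 ± 0.39 and 0.36 ± 0.35 in the earlier and later intervals were not called (adjusted p = 0.741 and 0.481). The ratio of TM7SF2 counts to LBR counts, which is not corrected for transcript length, ran from 0.0351 to 0.203 in GD100 libraries, from 0.104 to 0.473 in GD124 libraries and from 1.06 to 2.11 in GD144 libraries. No GD144 library overlapped an earlier one in that ratio.

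**Figure D3:**
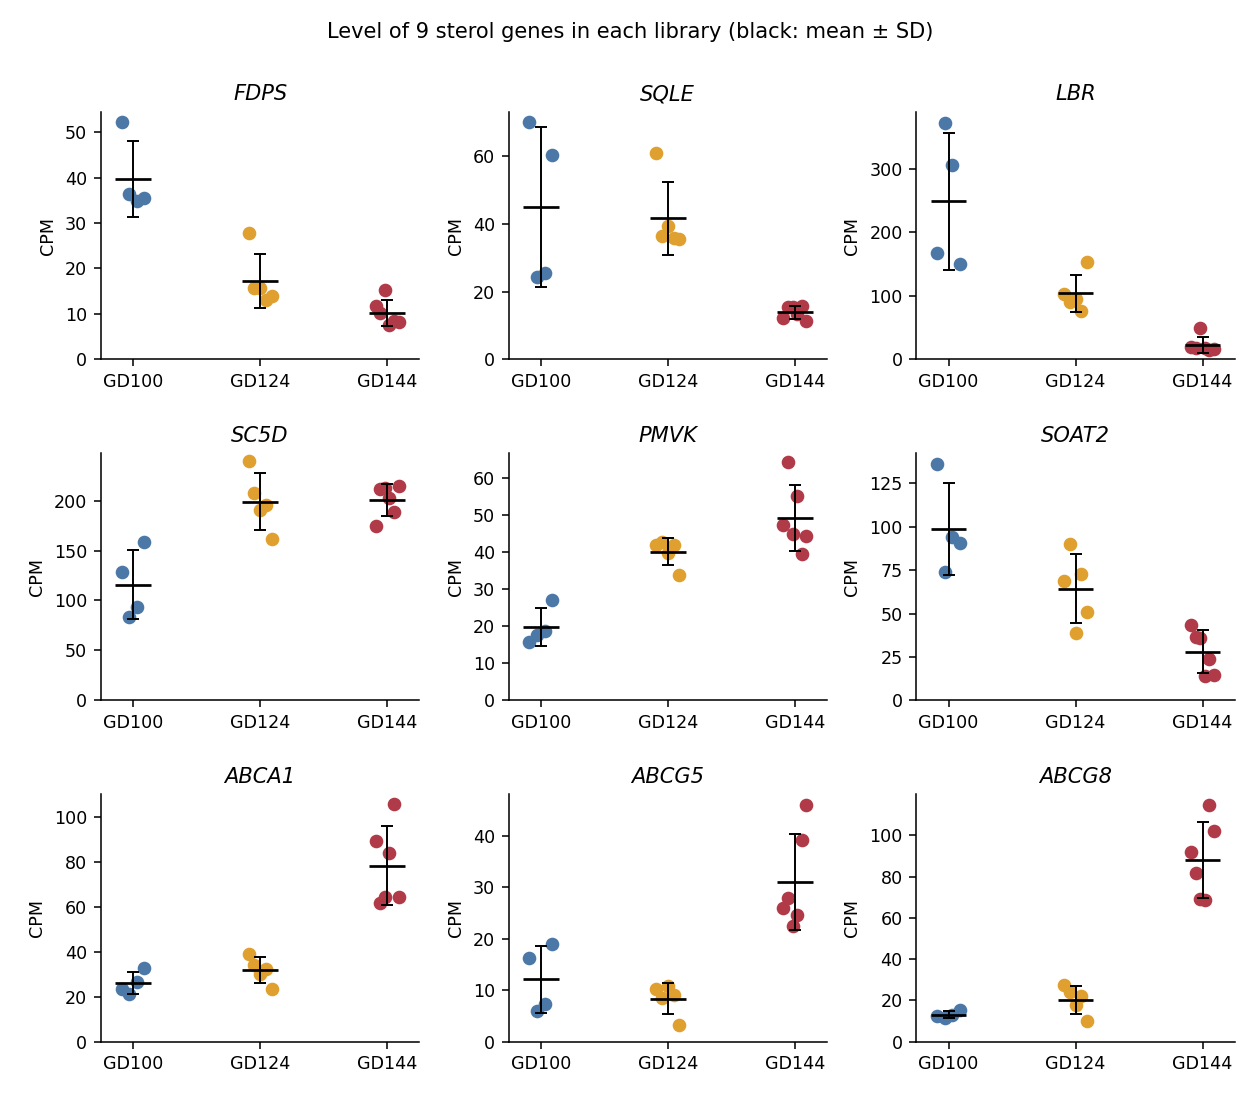
CPM (vertical axes, each starting at 0) of 9 sterol genes in each library at GD100, GD124 and GD144, with black marks for the mean and SD of each stage (n = 4, 5 and 6). SQLE and LBR are lowest at GD144, PMVK and SC5D step up between GD100 and GD124, and ABCA1, ABCG5 and ABCG8 are highest at GD144.

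Among the regulators, SREBF2 fell late and INSIG2 rose at each step. SREBF2 had 148, 133, 133 and 159 CPM at GD100, 195, 162, 168, 149.6 and 144 CPM at GD124, and 129, 124, 84.3, 71.0, 80.6 and 68.6 CPM in GD144 replicates 1 to 6. All GD144 libraries lay below all others, with replicates 1 and 2 nearest to them. SREBF2 fell by 0.82 at GD144 against GD124 (SE 0.17, adjusted p = 0.00181) and by 0.63 at GD144 against GD100 (SE 0.18, adjusted p = 0.00664), while the change at GD124 against GD100 was 0.19 ± 0.19 (adjusted p = 0.455).

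SCAP had 38.5, 30.4, 34.0 and 50.5 CPM at GD100, 33.9, 30.6, 32.03, 36.3 and 30.1 CPM at GD124, and a lowest value of 21.7, a median of 28.5 and a highest of 33.0 CPM at GD144. The stages overlapped. Its fall of 0.45 at GD144 against GD100 (SE 0.14, adjusted p = 0.0121) was lost without GD100 replicate 4 (adjusted p = 0.0861).

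INSIG2 had 23.9, 13.6, 20.9 and 24.6 CPM at GD100, 51.0, 65.5, 64.5, 55.3 and 39.6 CPM at GD124, and a lowest value of 77.1, a median of 101 and a highest of 111 CPM at GD144. The 3 stages did not overlap at all. INSIG2 rose by 1.41 ± 0.19 at GD124 against GD100 (adjusted p = 0.000172), by 0.84 ± 0.17 at GD144 against GD124 (adjusted p = 0.00148) and by 2.25 ± 0.19 over the whole span (adjusted p = 1.49e-07) on the log2 scale, which is 4.76-fold.

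INSIG1, whose own transcription is raised by the SREBF2 product, had 31.9, 32.9, 28.7 and 55.0 CPM at GD100, 66.9, 38.1, 32.5, 30.1 and 31.4 CPM at GD124, and a lowest value of 15.7, a median of 32.8 and a highest of 41.9 CPM at GD144. The medians of the 3 stages lay within 1 CPM of each other, and no comparison was called. The ratio of INSIG2 counts to INSIG1 counts ran from 0.413 to 0.750 in GD100 libraries, from 0.763 to 1.99 in GD124 libraries and from 1.84 to 6.86 in GD144 libraries. GD124 replicate 1, the library highest in INSIG1, had the lowest ratio of its stage.

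**Figure D4:**
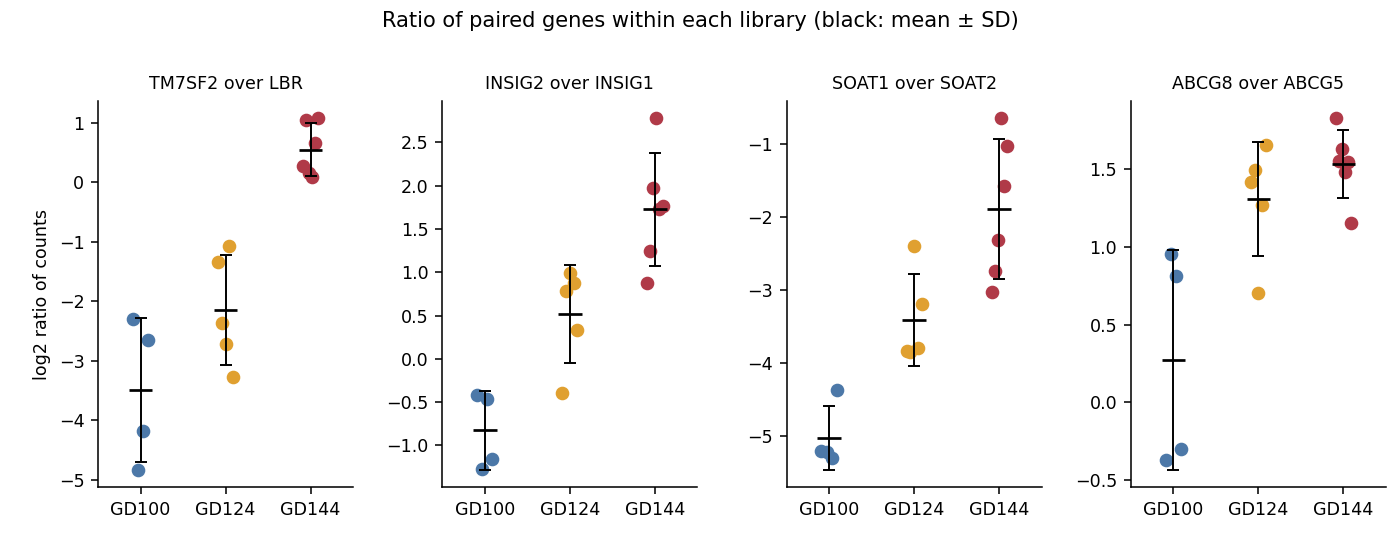
Log2 ratio of the counts of both genes of a pair (vertical axes) in each library at GD100, GD124 and GD144 for TM7SF2 over LBR, INSIG2 over INSIG1, SOAT1 over SOAT2 and ABCG8 over ABCG5, with black marks for mean and SD. The ratios are not corrected for transcript length, so their level cannot be read. A change between stages may also hold reads shared by ABCG8 and ABCG5 or a difference in counting between GD100 libraries. TM7SF2 over LBR shows no overlap between GD144 and the earlier stages.

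Of the genes for movement of sterol inside the cell, NPC2 and STARD4 rose over the whole span and NPC1 was not called. NPC2, the soluble protein that takes cholesterol up in the lysosome, averaged 41.9 ± 10.2 CPM at GD100, 66.7 ± 5.32 CPM at GD124 and 58.2 ± 6.13 CPM at GD144. It rose by 0.67 ± 0.15 at GD124 against GD100 (adjusted p = 0.00331) with no overlap, and its later change was -0.20 ± 0.13 (adjusted p = 0.303). NPC1, the membrane partner that receives cholesterol from NPC2, averaged 10.3 ± 1.94, 7.70 ± 1.37 and 7.86 ± 0.986 CPM and was not called (adjusted p = 0.072 at GD124 against GD100). STARD4, a soluble sterol carrier, averaged 24.3 ± 5.00, 32.6 ± 7.79 and 32.9 ± 5.25 CPM. Its rise of 0.44 ± 0.18 at GD144 against GD100 (adjusted p = 0.044) was lost in 8 of the 15 fits that left out a library, those without any 1 of GD100 replicates 1 to 3, GD124 replicate 4 or GD144 replicates 2, 3, 5 and 6. The highest of these adjusted p values, 0.125, came without GD100 replicate 3.

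SOAT1 and SOAT2, the enzymes that esterify cholesterol for storage and lipoprotein assembly, moved in opposite directions. SOAT1, which many cell types express, had 3.70, 1.99, 2.40 and 4.38 CPM at GD100, 4.87, 6.27, 7.42, 5.25 and 5.59 CPM at GD124, and a lowest value of 5.32, a median of 7.22 and a highest of 9.17 CPM at GD144. GD100 lay below both later stages, which overlapped. SOAT1 rose by 0.91 ± 0.25 at GD124 against GD100 (adjusted p = 0.00997) and by 1.18 ± 0.24 at GD144 against GD100 (adjusted p = 0.000581).

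SOAT2, which in adult mammals is the form of hepatocytes and enterocytes, had 136, 74.1, 94.2 and 90.6 CPM at GD100, 69.0, 90.0, 38.9, 72.6 and 50.8 CPM at GD124, and 43.4, 36.4, 35.8, 14.3, 23.8 and 14.7 CPM in GD144 replicates 1 to 6. Only GD144 replicate 1 exceeded the lowest GD124 library, and GD144 lay wholly below GD100. SOAT2 fell by 1.20 at GD144 against GD124 (SE 0.30, adjusted p = 0.00738) and by 1.82 at GD144 against GD100 (SE 0.31, adjusted p = 0.000155), and its change at GD124 against GD100 was -0.62 ± 0.33 (adjusted p = 0.156). The ratio of SOAT1 counts to SOAT2 counts ran from 0.0255 to 0.0484 in GD100 libraries, from 0.0696 to 0.191 in GD124 libraries and from 0.123 to 0.640 in GD144 libraries.

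LCAT, which the liver secretes and which esterifies cholesterol on plasma lipoprotein, averaged 171 ± 67.0, 238 ± 35.9 and 257 ± 14.2 CPM at GD100, GD124 and GD144. Its rise of 0.59 ± 0.21 at GD144 against GD100 (adjusted p = 0.0231) was lost without GD100 replicate 2 (adjusted p = 0.0616) and without GD100 replicate 3 (adjusted p = 0.0736), the libraries lowest in LCAT.

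The export genes carried the largest rises of the later interval. ABCA1, which lipidates nascent high density lipoprotein, had 23.5, 21.3, 26.8 and 32.7 CPM at GD100, 39.2, 34.1, 30.3, 32.3 and 23.3 CPM at GD124, and 89.5, 62.0, 64.6, 84.2, 106 and 64.6 CPM in GD144 replicates 1 to 6. Every GD144 library lay above every earlier one, and GD100 and GD124 overlapped. ABCA1 rose by 1.30 ± 0.17 on the log2 scale at GD144 against GD124 (adjusted p = 6.59e-05), after a change of 0.29 ± 0.19 at GD124 against GD100 (adjusted p = 0.25).

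Macrophages express ABCA1 as well as hepatocytes. The 9 macrophage markers measured had sums of 91.97 to 368.5 CPM at GD100, 319.6 to 539.8 CPM at GD124 and 400.3 to 709.7 CPM at GD144, none of them at 0 in any library. The 6 endothelial markers summed to between 177.8 and 289.1 CPM at GD100, between 208.2 and 432.1 CPM at GD124 and between 423.6 and 655.3 CPM at GD144. At GD144 against GD124, 3 of the 9 macrophage markers and 6 of the 6 endothelial markers were called higher, where 12.1% of all genes were. All 9 macrophage markers had log2 changes above 0, with a median of 0.63. The part of macrophages and endothelial cells in the rise of the export genes was not tested.

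ABCG5 had 16.2, 5.94, 7.28 and 19.0 CPM at GD100, 10.2, 8.50, 10.9, 9.07 and 3.16 CPM at GD124, and 25.9, 27.9, 22.4, 24.6, 39.3 and 45.9 CPM in GD144 replicates 1 to 6. GD144 lay above both other stages, the GD100 libraries spread around the GD124 values, and GD124 replicate 5 was the lowest of all. ABCG5 rose by 1.89 ± 0.35 at GD144 against GD124 (adjusted p = 0.00107), and its change at GD124 against GD100 was -0.53 ± 0.37 (adjusted p = 0.293).

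ABCG8 had 12.5, 11.5, 12.8 and 15.5 CPM at GD100, 27.3, 23.9, 17.7, 21.9 and 9.94 CPM at GD124, and 91.9, 81.7, 69.3, 68.8, 115 and 102 CPM in GD144 replicates 1 to 6. The lowest GD144 library had 68.8 CPM, against 27.3 CPM in the highest GD124 library. ABCG8 rose by 2.13 ± 0.22 at GD144 against GD124 (adjusted p = 1.03e-05) and by 2.75 ± 0.25 over the whole span (adjusted p = 2.42e-07), which is 6.74-fold. Its rise of 0.63 ± 0.23 at GD124 against GD100 (adjusted p = 0.0489) was lost in 12 of the 15 fits that left out a library, all but those without GD124 replicate 5, GD144 replicate 3 or GD144 replicate 5. GD124 replicate 5 was again the lowest of its stage and lay below every GD100 library.

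ABCG5 and ABCG8 are neighbours that overlap each other in the RefSeq annotation, and whether counting used the strand is not given, so reads may be shared between them. The ratio of ABCG8 counts to ABCG5 counts was between 0.772 and 1.94 at GD100, between 1.63 and 3.15 at GD124 and between 2.22 and 3.54 at GD144. Of the 31 genes, 14 overlap another annotated gene, among them PMVK, FDPS, FDFT1, SREBF2 and SOAT2, and the same limit holds for their counts.

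Synthesis and export were then set side by side in each library, as the mean log2 CPM of the 18 synthesis genes minus that of the 3 export genes. This difference was 2.06, 1.92, 1.76 and 1.62 in GD100 replicates 1 to 4 and 1.73, 1.45, 1.43, 1.49 and 2.37 in GD124 replicates 1 to 5. At GD144 the lowest was -1.09, the median -0.55 and the highest 0.12. All GD144 libraries lay below all earlier ones, and GD100 and GD124 overlapped; the highest GD124 value belonged to replicate 5, the library lowest in ABCG5 and ABCG8.

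The mean difference was 1.84 ± 0.19 at GD100, 1.69 ± 0.39 at GD124 and -0.53 ± 0.40 at GD144 (SD, n = 4, 5 and 6). It was 2.23 log2 units lower at GD144 than at GD124, and no test was made, since the genes were chosen with results known. The change at GD124 against GD100 was -0.15, smaller than the SD of either stage. It ran from -0.32 without GD124 replicate 5 to -0.07 without GD100 replicate 1, and it was moved by over 1.5 times also without any 1 of GD124 replicates 2 to 4. With the median over genes in place of the mean it was -0.71, and with GD100 replicate 1 alone -0.37. Of the 2.23 units, 1.81 came from higher export and 0.42 from lower synthesis. In summed CPM, the synthesis genes had 1426 ± 265 at GD100, 1417 ± 263 at GD124 and 1171 ± 168 at GD144, and the export genes 51.2 ± 11.9 at GD100, 60.4 ± 14.9 at GD124 and 197.5 ± 37.4 at GD144. The summed synthesis ranges overlapped between all stages, and the summed export range at GD144 lay above both others.

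**Figure D5:**
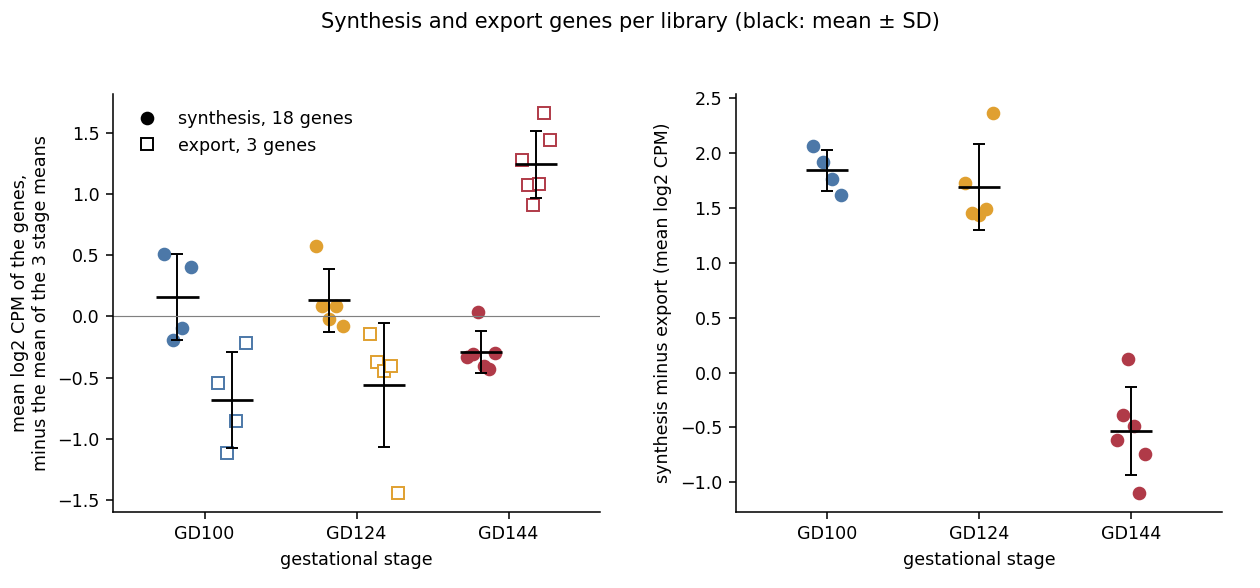
Left, mean log2 CPM of the 18 synthesis genes (circles) and the 3 export genes (squares), each shown relative to the mean of its stage means, in each library at GD100, GD124 and GD144. Right, synthesis minus export in mean log2 CPM per library, with black marks for mean and SD; the 6 GD144 libraries lie between -1.09 and 0.12 and the 9 earlier libraries between 1.43 and 2.37.

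Whether a gene changed differently in the later interval than in the earlier one was tested directly, as the later log2 change minus the earlier one. Over all genes, 2.15% were called higher and 3.75% lower in this test, 5.90% in all. ABCG5 (difference 2.42 ± 0.65, adjusted p = 0.0398) and ABCG8 (difference 1.50 ± 0.39, adjusted p = 0.035) were called higher, and NPC2 lower (difference -0.87 ± 0.24, adjusted p = 0.0443). No synthesis gene was called; the nearest was SQLE with -1.47 ± 0.45 (adjusted p = 0.0666). Without GD100 replicate 4, PMVK, SQLE, MSMO1 and SC5D were called lower, and without GD100 replicate 1, SQLE was. ABCA1 had a difference of 1.01 ± 0.31 (adjusted p = 0.0676) and SREBF2 one of -1.01 ± 0.30 (adjusted p = 0.0588). SREBF2 was called lower without GD144 replicate 1 (adjusted p = 0.0333) or replicate 2 (adjusted p = 0.0354), and ABCA1 higher with total counts as library sizes (adjusted p = 0.0284). Leaving out any 1 of GD124 replicates 2 to 5 or of GD144 replicates 5 and 6 left neither ABCG5 nor ABCG8 called, and NPC2 was lost in 12 of 15 such fits.

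Single libraries were high across many synthesis genes. GD124 replicate 1 was the highest of its 5 libraries in 16 of the 18 synthesis genes, the exceptions being PMVK and LBR. GD144 replicate 3 was the highest of 6 in 9 of them and lowest in none, and GD100 replicate 2 was the lowest of 4 in 12. At GD100 replicates 1 and 4 were the highest in 9 and 8, and these were the libraries with fewer erythroid counts. At GD144, by contrast, replicate 3 had the highest sum of erythroid markers of its stage, 719 CPM. GD124 replicate 1 had a sum of 1632 CPM, in a stage that ran from 1303 to 2888 CPM. A link between erythroid RNA and the order of the libraries in synthesis genes was not tested.

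Further genes of sterol biology were described from a list of 44, of which 41 were tested. At GD124 against GD100 9 were higher and 5 lower, at GD144 against GD124 8 higher and 4 lower, and at GD144 against GD100 13 higher and 9 lower. The shares of all genes called were 16.6% higher and 17.4% lower, 12.1% and 15.4%, and 27.1% and 27.9% in the same order. No test of the list was made, and the comparisons share libraries. No difference between the list and all genes is read from these counts. The largest rise of this list in each comparison was ERLIN1, whose product helps to degrade sterol sensors in the endoplasmic reticulum, with 28.9 ± 6.00 CPM at GD100, 63.7 ± 11.1 CPM at GD124 and 122.6 ± 28.8 CPM at GD144 and log2 changes of 1.14 ± 0.20 and 0.94 ± 0.18 in the earlier and later intervals. In the earlier interval LIPA, the lysosomal lipase that frees cholesterol from esters, followed with 0.91 and ERLIN2 with 0.77, and in the later one COQ2, of ubiquinone synthesis, with 0.84 and the uptake receptor LRP1 with 0.64. Over the whole span the log2 changes were 2.08 for ERLIN1, 1.43 for COQ2 and 1.22 for LRP1.

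The largest fall of that list in every comparison was ABCG1, a sterol exporter that was not among the 3 genes counted here as export. ABCG1 therefore had no part in synthesis minus export, and no alternative added it. It had 51.5, 106.7, 74.7 and 35.4 CPM at GD100 and 17.5, 13.9, 13.5, 9.98 and 27.8 CPM at GD124, and averaged 4.65 ± 1.75 CPM at GD144. ABCG1 fell by 2.02 at GD124 against GD100 (SE 0.36, adjusted p = 0.000924) and by 1.83 at GD144 against GD124 (SE 0.33, adjusted p = 0.000901), in the direction opposite to ABCA1, ABCG5 and ABCG8 at GD144. As for LBR, GD100 replicates 2 and 3 and GD124 replicate 5, the libraries high in erythroid markers, were the highest of their stages, and the part of erythroid RNA was not tested. The other falls among the 3 largest were ABCA7 by 1.71 and GRAMD1A by 1.32 in the earlier interval and LIPA by 0.91 and MARCHF6 by 0.59 in the later one. Over the whole span ABCG1 fell by 3.85, ABCA7 by 2.55 and GRAMD1A by 1.23 on the log2 scale.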

How the data were processed

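Per the labels, poly(A)-selected paired-end libraries were made from fetal liver. The authors deposited estimated counts per gene, not normalised; DRAGEN is named in the submitters' processing notes, and its version, the genome build, annotation and use of strand were not given in the sources used here. Fractional values made up 6.549% of the table, and counts were rounded to whole numbers. Libraries were grouped by the labelled stage. Genes were filtered with filterByExpr and tested in edgeR 4.0.16 (R 4.3.3) by its quasi-likelihood F-test, with trimmed-mean (TMM) factors, 1 fit of all 15 libraries and robust estimation, with Benjamini-Hochberg adjustment over 16977 genes and a threshold of 0.05. CPM used TMM-scaled library sizes, and log2 CPM a prior count of 2. The standard error is the log2 change divided by the square root of F. The procedure was run on simulated counts with planted changes, with the same spread for every gene and otherwise the same composition in every library. These data differ in both, so the run gives no error rates for them. No 2 replicates of a stage were duplicates (lowest chi-square per degree of freedom 43.72 over genes with at least 20 counts).

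Values by library were given for genes called with a log2 change of at least 1 in size, for SREBF2 and SCAP and for the gene pairs of like function, with GD144 (6 libraries) often as lowest, median and highest. Other genes were given by mean and SD, except that FDFT1, LSS and ABCG1 were given by library, chosen after their values were seen. From the related list the 3 largest rises and falls among called genes were named per comparison. The genes and lists were chosen with earlier results of these data known. RefSeq assembly ARS-UI_Ramb_v3.0 served for names (31 of 31 genes matched) and overlaps only. Alternatives were DESeq2 1.42.0, RLE size factors, total counts, no filter, TMM without the 20 most abundant genes, a filter of 1 CPM in 4 libraries, only the stages compared, a replicate block, GD100 replicate 1 as the lone GD100 library, and leaving out each library. For synthesis minus export they were RLE size factors, a prior count of 0.5, the median over genes, and leaving out ACAT2, LBR or ABCA1. Leaving out libraries, GD100 replicate 1 as the lone GD100 library and total counts were added for it after the data were seen.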

Additional observations from a re-analysis of the deposited data

Results flagged for a closer look

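In each stage the highest or lowest library of each of the 31 genes was looked at for a wide gap to the others of its stage, by Dixon's test at its 95% critical value. Of the 93 groups looked at, 9 held such a library, all on the high side. The nominal 5% of the test holds for normal values and independent groups. These were untransformed CPM of genes measured in the same libraries, so the 9 cannot be set against that share. GD124 replicate 1 accounted for 5 of the 9. It had 27.8 CPM of FDPS, where the other GD124 libraries had 13.05 to 15.8. It had 107 CPM of FDFT1 (others 70.4 to 77.9) and 60.8 CPM of SQLE (others 35.6 to 39.3). It also had 51.0 CPM of LSS (others 37.0 to 40.6) and 66.9 CPM of INSIG1 (others 30.1 to 38.1). At GD100, replicate 1 had 52.2 CPM of FDPS (others 34.8 to 36.4) and replicate 4 had 55.0 CPM of INSIG1 (others 28.7 to 32.9). At GD144, replicate 3 had 49.4 CPM of LBR (others 15.02 to 20.01) and replicate 5 had 43.0 CPM of STARD4 (others 28.4 to 33.2).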

How the results depend on the processing

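No called value of a sterol gene changed sign under any alternative, and of 2914 values compared 67 changed sign with neither value called. The numbers of sterol genes called under every alternative were 5 of 9 at GD124 against GD100, 9 of 13 at GD144 against GD124, 14 of 22 at GD144 against GD100 and 0 of 3 for the difference between intervals. All 3 export genes were called higher at GD144 in every fit that left out a library. The 1 export gene higher at GD124 against GD100 became 0 under RLE size factors, total counts, no filter, TMM without the 20 most abundant genes, the 1 CPM filter, only the 2 stages compared, the replicate block and GD100 replicate 1 alone. The 1 sterol gene lower in the difference between intervals became 0 under RLE size factors, total counts, TMM without those 20 genes, no filter and the replicate block. Total counts moved the median log2 change of all genes at GD124 against GD100 to -0.16 (0.02 with TMM), gave 1805 genes and 6 sterol genes (higher and lower, each against 2825 and 3), called 1 synthesis gene higher at GD144 against GD124, and called 789 genes higher and 388 lower for the difference between intervals. DESeq2 called 5 sterol genes lower at GD124 against GD100. No filter left 1 sterol gene, an export gene, higher in the difference between intervals.

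With GD100 replicate 1 alone, assumed to vary like the other groups, 1575 genes were higher and 1592 lower at GD124 against GD100, with 3 sterol genes and 1 synthesis gene higher; 7 sterol genes were higher at GD144 against GD100, and 1, an export gene, in the difference between intervals. The median over genes in place of the mean put the change in synthesis minus export at -0.71 (GD124 against GD100) and -3.01 (GD144 against GD100). Under the replicate block, 99 genes were higher and 226 lower in the difference between intervals, with 0 sterol and 0 export genes higher. The replicate numbers were not taken to pair the samples: over 13 pairs of same-numbered libraries r ran from -0.15 to 0.14, and 2 of 15 libraries were nearest to their own number.

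Leaving out each library gave these ranges of genes called. For GD124 against GD100, genes higher ranged over 1867 (without GD100 replicate 3) to 2957 and lower over 2302 to 3277, sterol genes over 5 to 8 and 2 to 5, synthesis genes over 2 to 3 and 2 to 4, and export genes higher over 0 to 1. For GD144 against GD124, genes ranged over 1576 to 2422 and 2116 to 2775, sterol genes over 4 to 5 and 6 to 10, and synthesis genes over 0 to 1 and 4 to 8. For GD144 against GD100, sterol genes ranged over 9 to 11 and 9 to 13. For the difference between intervals, genes ranged over 99 to 708 and 280 to 1035 (the lowest without GD124 replicate 2, the highest without GD100 replicate 4), sterol genes over 0 to 2 and 0 to 5, synthesis genes lower over 0 to 4 and export genes higher over 0 to 2. The change in synthesis minus export ranged over -0.32 to -0.07 (GD124 against GD100), -2.36 to -2.06 (GD144 against GD124) and -2.51 to -2.26 (GD144 against GD100). The causes were not tested. The lowest count of a sterol gene was 57, and the biological coefficient of variation over all genes was 34.0%; their parts in which genes were called were not separated.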
